A study of Mus musculus with 38 samples.

Results

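The genes described here are those whose RNA level moved in the same direction with doxycycline (Dox) in each of 3 mouse kidney tumour cell lines, MYC-2983, VM-3055 and VIM-3039. All 24 cell-line libraries of the 38 in the series were used, 12 with Dox and 12 without, as 4 libraries of each line in each condition. Each line carries a Dox-inducible MYC transgene (Tet-O-MYC) driven through the kidney-specific Ksp-rtTA, so Dox keeps the transgene on. MYC-2983 cells carry the transgene alone, VM-3055 cells also lack Vhl, and VIM-3039 cells lack both Vhl and Ink4a/Arf. The Vhl alleles were deleted in kidney epithelium by the tamoxifen-inducible KspCreERT2, and the Ink4a/Arf deletion was germline. The labels describe the Dox arms as kept on Dox and the other arms as withdrawn from it, and RNA was collected 24 h after plating, so a gene that is higher with Dox is equally a gene that is lower after withdrawal. Each line came from 1 tumour, so genotype and line cannot be told apart, and no Dox-treated cells without the transgene were included, so responses to the drug and to the transgene cannot be told apart. Nothing says that the 4 libraries of a group came from separate cultures, and p-values measure only the spread between these libraries. In the fit of all lines together, with line as a block, that spread includes differences between lines in the Dox change. Its units are libraries and not lines, so its p-values and SEs do not tell how other lines would respond.

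MYC is a transcription factor that binds DNA as a dimer with MAX, preferably at E-boxes with the core sequence CACGTG, and the MXD proteins, MXI1, MNT and MGA compete for the same partner. It is best known for raising genes of ribosome production, nucleotide synthesis and cell cycle entry, and it lowers other genes in part through other factors such as MIZ1. Renal tubule epithelium, from which these tumours arose, normally divides little and rests on a basement membrane of laminins and type IV collagen.

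Of 21703 genes in the table, 13378 were above 0 in at least 4 of the 8 libraries of every line and were tested with limma on log2(signal + 1), where the signal is the authors' RSEM estimate scaled to an upper quartile of 1000 in each library. With line as a block, 690 genes were higher with Dox (5.16% of those tested) and 2022 were lower (15.1%), with limits of 0.05 on the adjusted p and of 1 on the size of the log2 change. A gene was called common when it passed these limits in the block fit and also within MYC-2983, within VM-3055 and within VIM-3039 cells, in the same direction. By this rule 300 genes were common and higher (2.24%) and 1104 were common and lower (8.25%). The direction was more widely shared than the size, since 3044 genes (22.8%) were higher and 4478 (33.5%) lower in each line by the adjusted p alone. Without any limit, 3975 genes (29.7%) had a higher and 6207 (46.4%) a lower mean with Dox in all lines. In contrast, 44 genes (0.329%) passed both limits in opposite directions in a pair of lines.

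The set weighed towards genes that fell, and how far depended on the scaling of the libraries. Among the 1404 common genes 78.6% were lower with Dox, against 66.6% after TMM rescaling and 55.7% after quantile normalization. Genes averaging 50 units or more had a median Dox change of -0.11 on the log2 scale, which was 0.01 after TMM rescaling and 0.02 after quantile normalization, and the changes below are to be read against that shift. Where 3 changes stand together below, they are Dox minus no Dox on the log2 scale, given for MYC-2983 first, then VM-3055, then VIM-3039. The medians of the 20 gene lists described below kept their sign under both rescalings. Depth ran from 12400000 to 36600000 estimated reads per library, and a level of 3 reads corresponded to 1.16 to 3.34 units.

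Taken line by line, 567 genes (4.24%) were higher with Dox in MYC-2983, 805 (6.02%) in VM-3055 and 1054 (7.88%) for VIM-3039, and the common genes made up 52.9%, 37.3% and 28.5% of them. Lower with Dox were 1879 (14%), 2530 (18.9%) and 2164 (16.2%), of which the common genes made up 58.8%, 43.6% and 51%. An average of 50 units or more in the higher arm of every line was reached by 233 of the 300 higher and 645 of the 1104 lower genes, so many of the falls were in genes of low level in at least 1 line. The median change of the common higher genes was 1.34 in MYC-2983, 1.65 in VM-3055 and 1.74 for VIM-3039, and that of the common lower genes was -1.49, -1.80 and -1.72. MYC-2983 cells gave the smallest of the 3 changes for 188 of the 300 higher genes and for 623 of the 1104 lower genes. In all, 262 of the 390 higher genes and 406 of the 918 lower genes that passed in the block fit but were not common missed the limits in MYC-2983 cells alone. Groups did not overlap in any line for 288 of the 300 higher and 1028 of the 1104 lower genes, against 20.5% and 30.4% of all tested genes. Genes that pass both limits in each line are mostly separated there already, so these counts largely restate the rule. A change of more than 2 in each line was seen for 31 higher and 102 lower genes. At the limit of the rule, the smallest of the 3 changes was 1.006 for Recql4 and 1.008 for Gins1, just inside on the higher side, and 0.995 for both Sdad1 and Polr3e, just outside. On the lower side it was -1.0004 for Rasl11b and -1.0016 for 6430527G18Rik, just inside, and -0.9989 for both Ypel3 and Arhgef16, just outside.

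**Figure D1:**
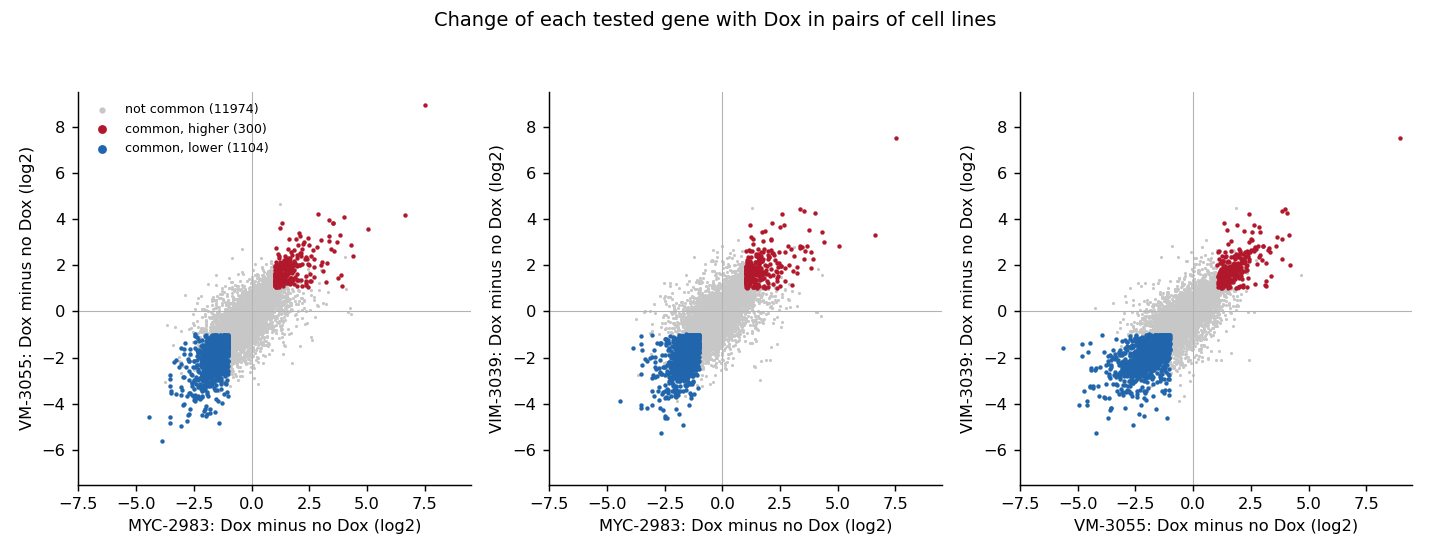
Dox minus no Dox change (log2) of each of the 13378 tested genes in pairs of cell lines, MYC-2983 against VM-3055 (left), MYC-2983 against VIM-3039 (middle) and VM-3055 against VIM-3039 (right). The 300 common higher genes (red) fill the upper right and the 1104 common lower genes (blue) the lower left, and the changes correlated across genes at r = 0.791, 0.769 and 0.834 (genes are not independent replicates).

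The engineered genes were read first, as a check of the labels. The row for mouse Myc was lower with Dox in every line, with levels of 651 to 699 against 1764 to 1868 units in MYC-2983, 338 to 413 against 1308 to 1406 in VM-3055 and 359.8 to 432 against 1384 to 1532 in VIM-3039 cells. Its changes were -1.44, -1.83 and -1.96, with an adjusted p of 3.57e-20 in the block fit (limma), and reads of the transgene cannot be told apart from those of the endogenous gene (chr15:61816946-61821929 in mm9) in a table of gene totals. The Myc row therefore does not check which libraries expressed the transgene. Vhl stood at 433 to 461 units with and 526 to 543 without Dox in MYC-2983 cells, and at 10.3 to 14.9 and 24.3 to 38.8 in VM-3055 and 8.32 to 18.05 and 9.49 to 24.9 in VIM-3039 cells. Cdkn2a, the gene of the Ink4a/Arf locus, stood at 24.9 to 34.7 with and 28.6 to 40.8 units without Dox in VIM-3039 cells, against 3056 to 3306 and 3332 to 3744 in MYC-2983 cells. The Vhl row matched the labelled genotype in each line, and the Cdkn2a row did so in MYC-2983 and VIM-3039 cells. The Cdkn2a level of VM-3055 cells is not given here.

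Among the partners of MYC, the 12 measured members of the MYC and MAX network moved in both directions, with 2 common lower genes, 0 common higher genes and a median change of 0.14. By the adjusted p alone 4 were higher and 4 lower in each line, shares near the 22.8% and 33.5% of all tested genes. Mycn, a paralogue of Myc, fell in all lines, with 51.98 to 62.99 units without and 11.4 to 16.2 with Dox in MYC-2983, 35.7 to 47.9 and 0 to 3.69 in VM-3055, and 15.6 to 26.5 and 0.656 to 2.77 in VIM-3039 cells. Its changes of -1.99, -4.12 and -3.24 differed between lines (adjusted p of the limma F test 5.55e-04). Max itself was higher with Dox by 0.68, 0.76 and 0.73, too small for the size limit, with an adjusted p of 0.33 in the F test between lines. The competing partner Mxi1 was higher by 1.19, 0.58 and 0.60, while Mxd1 (-0.76, -1.43 and -0.97) and Mxd4 (-0.64, -1.02 and -1.17) were lower. Mnt, a further competitor, had changes of 0.56, 0.12 and 0.19 (block fit adjusted p 1.21e-05).

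Most textbook targets of MYC were higher with Dox. Of 24 measured members, 10 were common and higher and 0 common and lower, against 2.24% and 8.25% of all tested genes. By the adjusted p alone 21 were higher in each line, against 22.8% of all tested genes. The median change was 1.09 against -0.18 over all tested genes. Spermidine synthase, Srm (chr4:147965612-147969102), makes polyamines. In MYC-2983 cells it held 6112, 6277, 6461 and 6205 units with Dox and 2165, 2074, 2055 and 2168 without. VM-3055 libraries held 6017, 5643, 5455 and 5613 units with Dox against 882, 839, 905 and 829 without. The VIM-3039 levels were 5687, 5474, 5495 and 5813 with Dox and 879, 797, 852 and 894 without. Every Dox library lay above every library without Dox, the levels with Dox were alike across the lines, and the levels without Dox were highest in MYC-2983. The changes of Srm were 1.57, 2.72 and 2.71 (2.33 ± 0.11 in the block fit, SE, adjusted p 1.07e-16, limma), and they differed between lines (F test adjusted p 1.75e-17). Slc16a1, the lactate transporter MCT1, rose, with 2189 to 2272 units without and 6785 to 7019 with Dox in MYC-2983, 1531 to 1664 and 5981 to 6334 in VM-3055, and 669 to 707 and 3479 to 3615 in VIM-3039 cells (changes 1.63, 1.94 and 2.37). The nucleolar proteins Ncl (1.21, 1.95 and 2.08) and Npm1 (1.04, 1.80 and 1.98), the nucleolar methyltransferase Fbl (1.28, 1.43 and 1.61) and the DNA repair endonuclease Apex1 (1.04, 1.39 and 1.63) were also common. Odc1, the enzyme before Srm in polyamine synthesis, was higher in each line but by 0.20, 0.87 and 1.44, which differed between lines (adjusted p 4.66e-18). The 3 members without a call in each line were Tert (0.05, -1.56 and -0.17), Hk2 (0.07, 0.24 and -0.04) and Eif4a1 (-0.01, 0.39 and 0.52).

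What the common genes share in sequence was read from windows of 300 bases, 250 before and 50 after each annotated start of a protein-coding transcript (mm9, GENCODE vM1). The E-box CACGTG, which reads the same on both strands, stood in 13.1% of the windows of common higher genes (86 of 655), 5.36% of those of common lower genes (144 of 2689) and 8.83% of all windows (2800 of 31699). Per gene the shares were 22.1% of 290 matched higher genes, 9.66% of 1066 lower genes and 13.9% of 12870 tested genes with a window. A pair of motifs for E2F, TTTGGCGC and TTTCCCGC on either strand, stood in 3.51%, 1.38% and 2.5% of the windows. Median GC content of the windows was 60.3%, 57.7% and 59.7%, and its part in these shares was not tested. These shares are descriptions, and a match is not a binding site.

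Shown here are the 250 bases before the most upstream annotated start of 3 common higher genes and 1 common lower gene, 5′ to 3′ on the strand of the gene, to let the position of the E-box (in capitals) be seen beside the direction of the change. They lie at chr4:147965362-147965611 (+ strand) for Srm, chr3:104442341-104442590 (+ strand) for Slc16a1, chr10:80306785-80307034 (- strand) for Lingo3 and chr7:149573944-149574193 (- strand) for Ctsd in mm9, and the first base of the E-box stands 172, 204, 91 and 34 bases before the start.
Srm: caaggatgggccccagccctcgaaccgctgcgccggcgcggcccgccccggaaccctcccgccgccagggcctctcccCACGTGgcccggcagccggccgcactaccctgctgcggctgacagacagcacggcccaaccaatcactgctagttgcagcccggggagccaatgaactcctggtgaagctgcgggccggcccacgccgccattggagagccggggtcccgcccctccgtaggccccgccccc
Slc16a1: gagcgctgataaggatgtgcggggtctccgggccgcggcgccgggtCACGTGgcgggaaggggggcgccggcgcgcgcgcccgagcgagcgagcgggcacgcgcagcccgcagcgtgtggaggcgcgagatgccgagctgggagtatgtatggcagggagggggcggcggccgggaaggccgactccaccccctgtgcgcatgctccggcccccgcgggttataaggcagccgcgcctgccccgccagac
Lingo3: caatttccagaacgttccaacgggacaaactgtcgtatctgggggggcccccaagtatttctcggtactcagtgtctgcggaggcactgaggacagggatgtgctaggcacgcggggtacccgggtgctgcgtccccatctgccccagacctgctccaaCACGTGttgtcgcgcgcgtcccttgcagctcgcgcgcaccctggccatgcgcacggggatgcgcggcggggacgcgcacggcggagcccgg
Ctsd: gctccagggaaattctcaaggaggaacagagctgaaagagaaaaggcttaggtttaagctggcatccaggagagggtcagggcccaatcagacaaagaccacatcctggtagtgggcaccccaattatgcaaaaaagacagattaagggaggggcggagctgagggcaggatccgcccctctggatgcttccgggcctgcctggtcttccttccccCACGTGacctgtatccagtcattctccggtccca
Srm, Slc16a1 and Lingo3 rose with Dox in all lines. Ctsd, which codes for the lysosomal protease cathepsin D, fell in all lines (changes -1.07, -1.39 and -1.11, a common call that was lost after either rescaling). The genes shown were picked among those with an E-box in these bases, so its presence in them does not bear on either direction.

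Genes of ribosome production moved to the higher side together. The list for ribosome biogenesis and RNA polymerase I had 36 measured members, all of them higher in each line by the adjusted p alone, with 13 common and higher, 0 common and lower and a median change of 1.30. Over all tested genes 22.8% were higher in each line by the adjusted p alone and 2.24% were common and higher. Nolc1 (chr19:46150353-46160018), a nucleolar chaperone of small nucleolar RNPs, held 7626, 7849, 7931 and 8236 units with Dox and 2879, 2808, 2783 and 2812 without in MYC-2983 cells. Its VM-3055 levels were 8302, 7617, 7868 and 7471 with Dox against 1564, 1682, 1538 and 1603 without. VIM-3039 libraries held 8105, 7917, 7947 and 8112 against 1547, 1492, 1431 and 1532. No Dox library overlapped with a library without Dox, and the lines reached similar levels with Dox from different levels without it. The change of Nolc1 was 2.07 ± 0.08 (SE) in the block fit (adjusted p 5.47e-18, limma), with 1.49, 2.29 and 2.42 in the lines. Polr1b, the second largest subunit of RNA polymerase I, rose by 1.58, 2.09 and 2.30, from 787, 612 and 560.3 to 2348, 2604 and 2757 units (means of 4). The other subunits in the list were Polr1e (1.04, 1.641 and 1.73), also common, and Polr1a (0.69, 1.18 and 1.52) and Polr1c (0.76, 0.76 and 0.92), which were not. Rrp1b, a nucleolar protein of ribosomal RNA processing, rose by 1.58, 2.06 and 2.08, and Dkc1, the pseudouridine synthase dyskerin, by 1.11, 1.66 and 2.35.

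Enzymes of nucleotide, serine and one-carbon synthesis moved the same way. Of 27 measured, 9 were common and higher, 0 common and lower, 25 were higher in each line by the adjusted p alone, and the median change was 1.11. Among all tested genes 2.24% were common and higher and 22.8% higher in each line by the adjusted p alone. The largest change was that of Shmt1 (chr11:60601606-60625220, overlapped on the other strand by Smcr8), the cytosolic serine hydroxymethyltransferase that feeds folate carriers. MYC-2983 libraries held 2638, 2643, 2733 and 2737 units of Shmt1 with Dox and 665, 615, 614 and 594 without. In VM-3055 cells the levels were 1448, 1395, 1405 and 1373 against 258, 235, 226 and 245. In VIM-3039 cells they were 1560.4, 1485, 1479.7 and 1426 against 152, 167, 198 and 178. Groups were far apart in each line, and the change was 2.58 ± 0.09 (SE, adjusted p 1.02e-19, limma) with 2.11, 2.54 and 3.10 in the lines. Shmt2, the mitochondrial enzyme, had changes of 0.93, 1.94 and 1.63 and missed the size limit in MYC-2983 cells only. On the pyrimidine side, Cad, which carries out the first steps, rose by 1.34, 1.87 and 1.98 and Dhodh, the mitochondrial step that follows, by 1.37, 2.11 and 1.74. On the purine side, Gart (1.22, 1.77 and 1.87), Pfas (1.02, 1.40 and 1.80), Ppat (1.03, 1.16 and 1.70), Prps1 (1.11, 1.81 and 1.85) and the GMP branch enzyme Impdh2 (1.13, 1.67 and 1.77) were common and higher. Rrm2, the small subunit of ribonucleotide reductase, had changes of 0.05, 1.06 and 1.23 and did not pass in MYC-2983 cells (adjusted p 0.217).

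Cell cycle genes rose more often than they reached the size limit. Of 35 measured genes of the G1/S transition and replication licensing, 34 were higher and 1 lower in each line by the adjusted p alone, while 3 were common and higher (6 after TMM rescaling), with a median change of 0.97. For all tested genes 22.8% were higher in each line by the adjusted p alone and 2.24% common and higher before rescaling. Ccne1 (chr7:38883003-38892553), the cyclin that activates CDK2 at the entry into S phase, held 1048, 1039, 1042 and 1011 units with Dox and 419.9, 430.3, 449.7 and 449 without in MYC-2983 cells. VM-3055 libraries held 1019.7, 927, 1025 and 963 against 279.5, 300.1, 293 and 254 units. VIM-3039 libraries held 1227, 1206, 1186 and 1162 against 396, 414, 411 and 399.8 units. These groups did not overlap, with a change of 1.53 ± 0.05 (SE, adjusted p 2.00e-19, limma). Mcm10 (1.06, 1.71 and 1.90) and Gins1 (1.01, 1.30 and 1.47), which act in the start of replication, were the others, and Gins1 lay at the limit of the rule. Mcm5, a subunit of the replicative helicase chosen for its role, stayed under the size limit in MYC-2983 cells (0.71, 1.30 and 1.52). The member that was lower in each line was cyclin D1, Ccnd1, with changes of -0.82, -1.63 and -0.77. All 23 measured genes of mitosis and the spindle were higher in each line by the adjusted p alone, and 3 were common (5 after TMM rescaling, median change 0.93). These were the Aurora kinase Aurkb (1.16, 1.46 and 1.35), the spindle checkpoint kinase Bub1b (1.07, 1.07 and 1.55) and the kinesin Kif11 (1.04, 1.07 and 1.20). Of 7 CDK inhibitors measured, 0 were common in either direction, and 3 were lower in each line by the adjusted p alone (median -0.46), against 33.5% of all tested genes. Cdkn2b (p15) had changes of -1.49, -1.46 and -0.78, and Cdkn1a (p21) had -0.78, -1.10 and 0.26, which differed between lines (adjusted p 7.12e-15). Cdkn1a levels in VIM-3039 cells were 2384 to 2395 units with Dox and 1905 to 2105 without, the opposite order to MYC-2983 (148 to 163 and 234 to 291) and VM-3055 cells (525 to 563 and 1094 to 1206).

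Genes of mitochondrial protein import and folding were higher in each line by the adjusted p alone in 20 of 22 cases, with 2 common (5 after TMM rescaling, 6 after quantile normalization) and a median change of 0.90. The import pore subunit Tomm5 rose by 1.35, 1.96 and 1.91 and the matrix chaperonin Hspd1 by 1.13, 1.88 and 1.84. Hspe1, the partner of Hspd1 that overlaps it on the other strand, had changes of 0.99, 1.57 and 1.58. In the list for mitochondrial and integrated stress response, 9 of 16 members were lower and 2 higher in each line by the adjusted p alone. These shares were 33.5% and 22.8% over all tested genes, and the list median was -0.61. Of the 16, 1 was common and lower and 0 were common and higher, against 8.25% and 2.24% of all tested genes. That member was the transcription factor Ddit3 (CHOP), which fell, with 491 to 572 units without and 223 to 235 with Dox in MYC-2983, 322 to 391 and 78.1 to 111 in VM-3055, and 332 to 341 and 68.2 to 85.3 in VIM-3039 cells. Ddit3 overlaps Mars on the other strand, and whether reads were assigned by strand is not given in the sources used here. Atf4, the factor at the centre of this response, had changes of -0.10, 0.30 and -0.12 (block fit adjusted p 0.585). Cholesterol synthesis gave 0 common genes of 18 measured, with 8 higher and 1 lower in each line by the adjusted p alone (22.8% and 33.5% of all tested genes) and a median of 0.29.

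**Figure D2:**
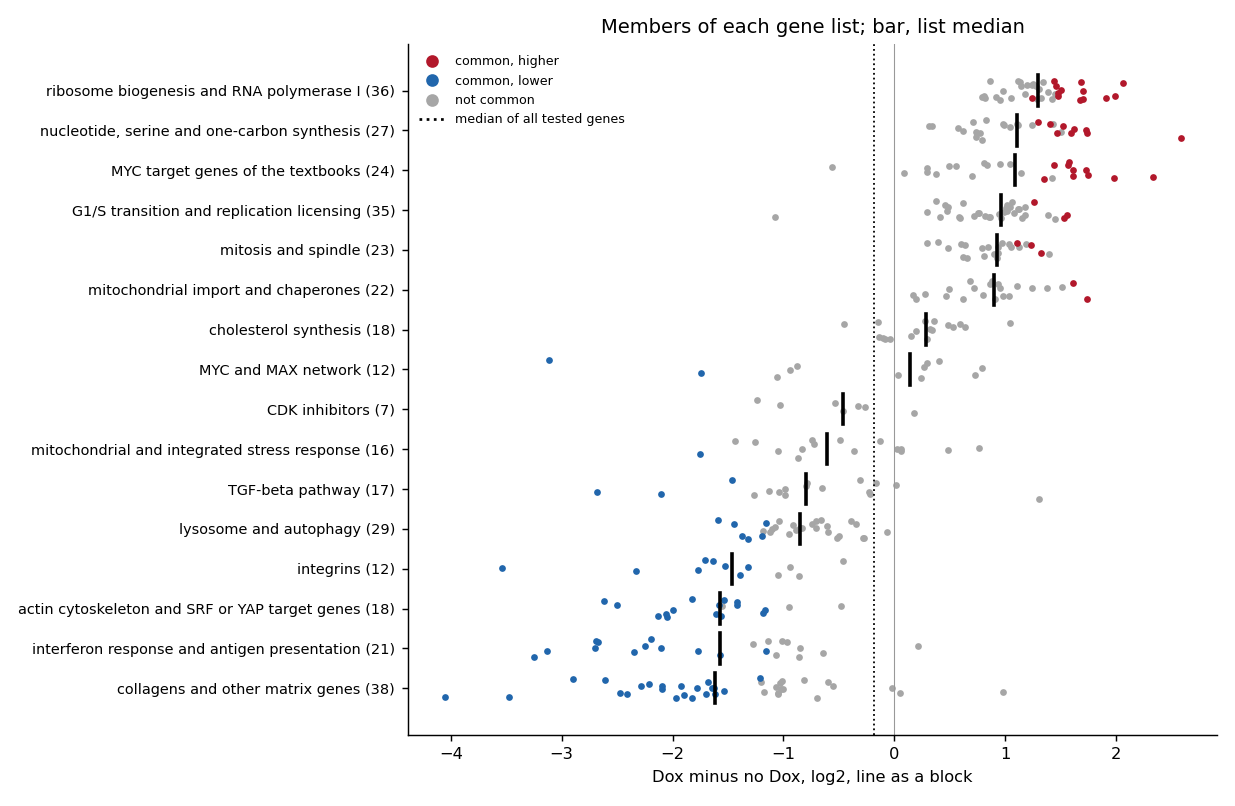
Dox minus no Dox change (log2, line as a block) of every measured member of 16 gene lists, ordered by the list median (black bar), with the number of members in brackets. The median was 1.30 for ribosome biogenesis and -1.62 for collagens and other matrix genes, against -0.18 over all tested genes (dotted line), and coloured points mark the genes common to the 3 lines.

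The genes with the largest common rises, like the largest falls below, were chosen by size. Both sets were limited to genes averaging 50 units or more in the higher arm of each line. They were also limited to genes whose arms did not overlap in any line, so that separation was part of the choice. The rises did not belong to the groups above. Rasd2 (chr8:77737843-77748012), which codes for the small GTPase Rhes, held 315, 284, 325 and 279 units with Dox and 15.1, 14.5, 20.3 and 22.3 without in MYC-2983 cells. In VM-3055 cells it held 461, 398, 429.5 and 424 against 29.98, 17.1, 29.5 and 23.5 units. In VIM-3039 cells it held 120.1, 113, 118 and 124 against 5.69, 5.57, 6.12 and 4.15 units. The groups lay far apart in every line, the change was 4.11 ± 0.09 (SE, adjusted p 3.56e-23, limma), and the line changes of 4.01, 4.07 and 4.24 gave an adjusted p of 0.585 in the F test. Fzd9 (chr5:135724808-135727100), a gene with 1 annotated exon for a Wnt receptor of the Frizzled family, held 157, 153, 152 and 158 units with Dox and 15.1, 11.2, 11.6 and 11.97 without in MYC-2983 cells. VM-3055 levels of Fzd9 were 121, 121, 95.9 and 126 against 7.05, 5.82, 8.53 and 7.60. VIM-3039 levels of Fzd9 were 119, 136, 119 and 125 against 5.69, 5.57, 6.12 and 3.32. Levels of Fzd9 with Dox were similar in the lines, and its changes were 3.54, 3.83 and 4.37. Gls2, the liver-type glutaminase, rose by 5.06, 3.59 and 2.85, with 10.3 to 13.9 units without and 419 to 456 with Dox in MYC-2983, 34.2 to 48.8 and 472 to 542 in VM-3055, and 30.4 to 52.04 and 295 to 332 in VIM-3039 cells, and the changes differed between lines (adjusted p 6.77e-11); the annotated Spryd4 overlaps it on the other strand. The amino acid transporter Slc6a15 rose by 4.40, 2.41 and 2.98 and differed as well (adjusted p 6.75e-15), with levels without Dox of 25.0041 to 37.04 units in MYC-2983 against 267 to 305 in VM-3055 and 165 to 186 in VIM-3039 cells. Lingo3 (4.30, 2.89 and 3.42), Fam184b (3.68, 3.01 and 2.84), the chromatin factor Cecr2 (2.65, 2.64 and 3.75), the proprotein convertase Pcsk4 (2.51, 2.87 and 3.64) and Ccdc116 (2.28, 2.99 and 2.23) complete the set.

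Sssca1 headed the ranking by size, but its values do not read as those of the others do. It was listed at 0 in all 12 libraries without Dox, so it passed the filter only through its Dox libraries. With Dox it held 165, 94.1, 239 and 293 units in MYC-2983, 559, 514, 405 and 497 in VM-3055 and 208, 205, 202 and 122 in VIM-3039 cells. Sssca1 (chr19:5728088-5731732) overlaps Fam89b (chr19:5728087-5729653) on the same strand, so the estimate can split reads between these genes, and no fold change is given. Fam89b, named here after its values were seen, stood at 1169 to 1334 units with and 914 to 1096 without Dox in MYC-2983, 1068 to 1247 and 805 to 923 in VM-3055 and 1499 to 1599.7 and 1336 to 1506 in VIM-3039 cells.

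**Figure D3:**
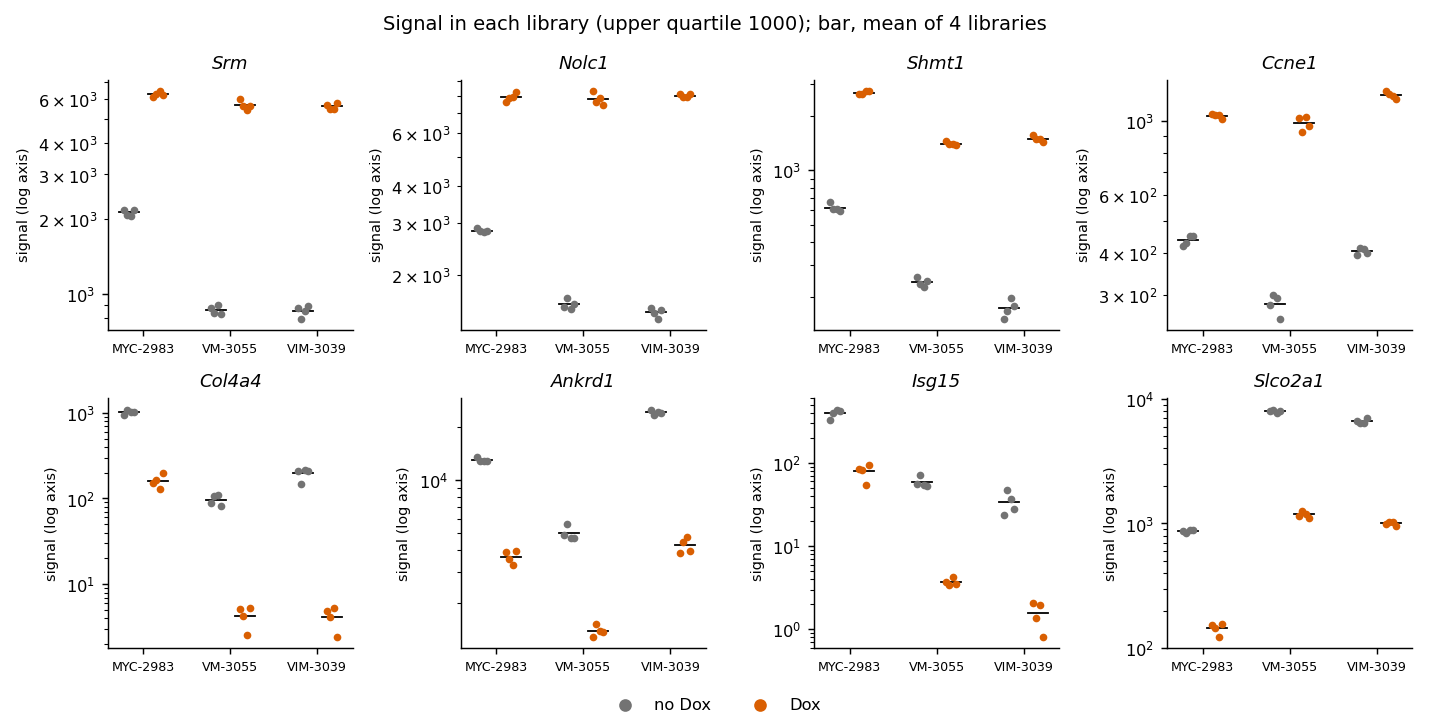
Signal of 8 common genes in each of the 24 libraries (points; log axis, upper quartile of a library set to 1000) with the mean of 4 libraries (bar), without Dox (grey) and with Dox (orange) in each line. Srm, Nolc1, Shmt1 and Ccne1 were higher with Dox in all lines and Col4a4, Ankrd1, Isg15 and Slco2a1 lower, with no overlap between the arms of any line.

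On the lower side, matrix genes were the longest list and gave 22 common genes, while a larger share of the actin list and of the integrins was common. Of 38 measured collagens and other matrix genes, 22 were common and lower and 0 common and higher, 33 were lower and 1 higher in each line by the adjusted p alone, and the median change was -1.62. Over all tested genes 8.25% were common and lower and 33.5% lower in each line by the adjusted p alone. Col4a4 and Col4a3 code for chains of the type IV collagen of the glomerular and distal tubular basement membrane. Col4a4 (chr1:82447298-82583424) held 153, 165, 128 and 197 units with Dox and 946, 1086, 1027 and 1027 without in MYC-2983 cells. In VM-3055 cells it held 5.17, 4.26, 2.55 and 5.26 against 88.2, 106, 109 and 81.3 units, and in VIM-3039 cells 4.86, 4.16, 5.25 and 2.42 against 211, 149, 214 and 211. The arms were separated in each line, and with Dox VM-3055 and VIM-3039 cells came near the level of 3 reads while MYC-2983 cells did not. The changes of Col4a4 were -2.68, -4.22 and -5.27 (-4.06 ± 0.24 in the block fit, SE, adjusted p 1.07e-14, limma), and those of Col4a3 were -2.57, -3.61 and -4.26. Other chains of type IV collagen were common with smaller changes, in Col4a1 (-1.79, -1.73 and -2.16), Col4a2 (-1.65, -2.46 and -2.17) and Col4a5 (-1.29, -2.23 and -1.42), although Col4a1 lost the call after quantile normalization, and Col4a6 (-1.24, -0.57 and -0.63), at no more than 1.55 units in VM-3055 cells, was not common.

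Col4a3 and Col4a4 are read from opposite strands, with annotated starts 72 bases apart in mm9. The 71 bases between the genes are shown because both genes moved together on either side of them (chr1:82583425-82583495, + strand, that of Col4a3), and they hold no E-box.
Col4a3-Col4a4: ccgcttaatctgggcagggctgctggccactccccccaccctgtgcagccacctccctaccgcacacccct
In each line, every Dox library lay below every library without Dox for both genes.

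Fibronectin, Fn1, chosen for its role, was common, with 55096 to 62439.6 units without and 18525 to 24726 with Dox in MYC-2983, 100479 to 132749 and 22643 to 25627 in VM-3055, and 181581 to 208575 and 59623 to 64906 in VIM-3039 cells, with changes of -1.45, -2.27 and -1.636, a call that was lost after quantile normalization. Col1a1 (-2.49, -3.03 and -3.19, at 1.48 to 2.55 and 17.6 to 25.8 units with and without Dox in VM-3055 cells) and Col1a2 (-2.19, -2.86 and -2.18), the chains of fibrillar type I collagen, and the matricellular protein Thbs1 (-2.07, -2.15 and -2.40) were common too. The crosslinking enzyme Loxl2 fell (changes -1.95, -1.96 and -1.99), while its relative Lox was not tested because it was not above 0 in enough VM-3055 libraries. The laminin chain Lama3 moved in opposite directions (-1.89, -2.74 and 1.02), with 3.23 to 8.33 units with and 0 to 5.57 without Dox in VIM-3039 cells, and fibulin Fbln1 was the member that was higher in each line (0.46, 1.03 and 1.46). Fibroblast markers were measured beside these genes, as signs of another cell type. Their summed level over 10 markers was 9021 to 9963 units with Dox and 27602 to 28871 without in MYC-2983, 95.9 to 124 and 702 to 778 in VM-3055 and 81.2 to 114 and 355 to 416 in VIM-3039 cells. In MYC-2983 cells most of the sum was periostin, Postn (8665 to 9603 and 26439 to 27627 units), while Thy1 was at 0 in all 16 VM-3055 and VIM-3039 libraries. Of 5 markers tested 3 were common and lower (Col1a1, Col1a2 and Postn, list median -2.15), against 8.25% of all tested genes. Of these 3 markers, 2 stand in the matrix list as well. The part of such cells in the matrix result was not tested, and in bulk RNA fewer cells of a type and less RNA per cell cannot be told apart.

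Most actin cytoskeleton genes and textbook targets of SRF or YAP were lower with Dox as well. Of 18 measured, 15 were common and lower, 17 were lower in each line by the adjusted p alone, 0 were higher, and the median change was -1.57. Among all tested genes 8.25% were common and lower and 33.5% lower in each line by the adjusted p alone. Ankrd1 (chr19:36186455-36194334), a muscle ankyrin repeat protein widely used as a readout of YAP, held 3887, 3541, 3297 and 3921 units with Dox and 13484, 12805, 12777 and 12779 without in MYC-2983 cells. VM-3055 cells held 1284, 1512, 1395 and 1376 against 4889.8, 5630.5, 4704 and 4687 units. VIM-3039 cells held 3821, 4437, 4739 and 3957 against 24963, 23361, 24156 and 23988 units. The lines differed in level but not in direction, and the change was -2.06 ± 0.07 (SE, adjusted p 4.20e-19, limma), with -1.83, -1.84 and -2.51 in the lines. Further YAP targets Ctgf (-1.90, -1.56 and -2.02) and Cyr61 (-1.50, -1.63 and -1.71) and the calponin Cnn2 (-1.77, -1.98 and -2.41) were common. Smooth muscle actin, Acta2, fell, with 66773 to 71099.6 units without and 15668 to 18453 with Dox in MYC-2983, 5.29 to 10.6 and 0 to 1.48 in VM-3055, and 4609.8 to 5148 and 441 to 615 in VIM-3039 cells, so its change in VM-3055 rests on few reads. Srf itself, the factor of these targets, had changes of -0.53, -0.11 and -0.80. Integrins, the receptors that join matrix and actin, gave 8 common and lower genes of 12 measured, 0 higher, and a median of -1.46. Itgb3 fell, with 1121 to 1171 units without and 263 to 365 with Dox in MYC-2983, 275 to 314 and 51.8 to 56.9 in VM-3055, and 1028 to 1121 and 147 to 179.8 in VIM-3039 cells (changes -1.88, -2.36 and -2.75). Itgb6 (-1.86, -1.97 and -1.49), which pairs with Itgav (-1.57, -1.62 and -1.40) to activate TGF-beta, the collagen receptor subunit Itga2 (-3.51, -2.93 and -4.19, at 0 to 1.70 and 6.98 to 15.95 units with and without Dox in VM-3055 cells) and the shared subunit Itgb1 (-1.19, -1.30 and -1.48, not common after quantile normalization) were common. Itga6 (-0.59, -0.05 and -0.75) and Itgb4 (-1.73, -1.51 and 0.43), the pair of hemidesmosomes, were not.

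In the TGF-beta pathway 3 of 17 measured genes were common and lower, 0 common and higher, and 11 were lower and 1 higher in each line by the adjusted p alone (median -0.79). Among all tested genes 8.25% were common and lower, and 33.5% were lower in each line by the adjusted p alone. The ligand Tgfb3 fell, with 9066 to 9706 units without and 1813 to 1930.4 with Dox in MYC-2983, 272 to 305 and 69.3 to 87.2 in VM-3055, and 699 to 817 and 162 to 175 in VIM-3039 cells (changes -2.32, -1.80 and -2.18). The receptor Tgfbr2 (-1.41, -1.78 and -1.20) and the latent binding protein Ltbp2 (-2.36, -2.30 and -3.39) fell, the latter at 0.849 to 3.40 and 7.94 to 17.99 units with and without Dox in VM-3055 cells. Of the signal carriers, Smad3 was lower in each line (-0.77, -1.04 and -1.14), whereas Smad2 (-0.16, -0.06 and -0.28) was not called. Ltbp4 was the member that was higher in each line (0.85, 1.36 and 1.70).

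Interferon-response and antigen presentation genes were lower with Dox in these cultured cells. Of 21 measured, 12 were common and lower and 0 higher, 19 were lower in each line by the adjusted p alone, and the median was -1.57. For all tested genes these shares were 8.25% common and lower and 33.5% lower in each line by the adjusted p alone. Isg15 (chr4:155573533-155574927), a ubiquitin-like protein that is conjugated to other proteins, held 85.5, 81.6, 54.7 and 94.9 units with Dox and 331, 403, 439 and 422 without in MYC-2983 cells. Its VM-3055 levels were 3.69, 3.40, 4.24 and 3.51 against 55.6, 71.7, 54.3 and 52.4. Its VIM-3039 levels were 2.08, 1.39, 1.97 and 0.808 against 23.7, 46.8, 36.7 and 28.2. With Dox, VM-3055 and VIM-3039 libraries lay near the level of 3 reads, MYC-2983 libraries well above it, and no arms overlapped. The changes of Isg15 were -2.34, -3.65 and -3.75 (-3.25 ± 0.17 in the block fit, SE, adjusted p 1.53e-15, limma) and differed between lines (adjusted p 9.66e-05). Uba7, the enzyme that activates ISG15 and the largest common fall by the size rule, was lower, with 43.96 to 61.2 units without and 0.524 to 2.72 with Dox in MYC-2983, 181 to 201.3 and 5.91 to 8.77 in VM-3055, and 114 to 141 and 4.85 to 12.5 in VIM-3039 cells. Its changes of -4.44, -4.59 and -3.88 gave an adjusted p of 0.129 in the F test between lines. Ifit3 (-2.57, -3.09 and -2.42), Oasl2 (-2.60, -3.23 and -3.56, at most 22.3 units in either Vhl-deleted line) and the guanylate-binding GTPase Gbp2 (-2.71, -3.55 and -4.20) were common as well. Among the factors, Stat2 (-1.78, -1.73 and -1.21) and Irf7 (-2.86, -1.36 and -2.52) were common, the latter at 0 to 5.11 and 5.29 to 10.1 units with and without Dox in VM-3055 cells, and Irf7 lost the call with a pseudocount of 10, after quantile normalization or without VM-3055 Dox replicate 3 (-0.83 in VM-3055). In antigen presentation, the transporter subunit Tap2 fell (changes -1.93, -3.58 and -2.52), while Tap1 moved in opposite directions (-2.28, -1.54 and 1.25; F test adjusted p 8.40e-08), and it overlaps Psmb9 on the other strand. B2m (-0.88, -1.11 and -0.92) and the class I heavy chain H2-K1 (-0.44, -0.78 and -0.72) were lower by less. Leukocyte markers were near 0 for Emr1 (0 in all 24 libraries) and Cd3e (at most 0.851 units), but not for Ptprc and Cd68. Ptprc stood at 2.24 to 4.88 units with and 4.63 to 15.7 without Dox in MYC-2983 cells. It stood at 11.1 to 15.8 and 43.4 to 69.9 in VM-3055 and 7.27 to 20.997 and 9.18 to 16.1 in VIM-3039 cells. Cd68 stood at 13.98 to 19.9 and 38.1 to 42.98 in MYC-2983 cells. Its levels were 8.13 to 22.1 and 46.7 to 64.6 in VM-3055 and 7.87 to 17.4 and 8.92 to 18.2 in VIM-3039 cells. The sum of 7 leukocyte markers was 218 to 254 units with Dox and 439.6 to 466 without in MYC-2983, 362 to 404 and 944 to 1013 in VM-3055 and 287 to 313 and 369 to 444 in VIM-3039 cells, most of it Csf1r. Of 7 leukocyte markers 3 could be tested and 0 were common (median -0.95). Of 6 endothelial markers 2 could be tested and 0 were common (median -0.77). With 8.25% of all tested genes common and lower, counts of 0 among so few markers do not tell. The part of such cells in the interferon result was not tested.

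Most lysosome and autophagy genes were lower with Dox, but few reached the size limit. Of 29 measured, 6 were common and lower, 0 higher, and 25 were lower in each line by the adjusted p alone, with a median of -0.85, and 2 were common after either rescaling. For comparison, 8.25% of all tested genes were common and lower before rescaling, and 33.5% were lower in each line by the adjusted p alone. Progranulin, Grn, was lower, with 6551 to 7004 units without and 2898 to 3122 with Dox in MYC-2983, 5587 to 5771 and 1355 to 1409 in VM-3055, and 4043 to 4450.5 and 1373 to 1455 in VIM-3039 cells (changes -1.17, -2.04 and -1.55). Wipi1, which acts in the forming autophagosome (-1.36, -1.53 and -1.24), and the lysosomal enzyme subunit Hexa (-1.04, -1.36 and -1.56) were common, Hexa at no more than 4.65 units in VM-3055 cells, and it lost the call after either rescaling. Tfeb, a regulator of lysosomal genes that also binds CACGTG-type sites, had changes of -0.40, -0.07 and -0.71 and was not called.

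The remaining large common falls came from separate functions. Slco2a1, the prostaglandin transporter (chr9:102910817-102990179), held 152, 145, 122 and 157 units with Dox and 867, 846, 891 and 889.6 without in MYC-2983 cells. In VM-3055 cells the values were 1153, 1269.8, 1186 and 1115 against 7949, 8211, 7728 and 8011, and in VIM-3039 cells 991, 1031, 1022 and 954 against 6673, 6428, 6379.6 and 7071. Levels were lower in MYC-2983 cells in both arms, while the changes were -2.60, -2.76 and -2.73 (F test between lines, adjusted p 0.117, and block fit -2.69 ± 0.04, SE, adjusted p 1.64e-27, limma). Tcn2, the carrier of vitamin B12 (-2.73, -4.48 and -3.30), the chemokine Ppbp (-3.05, -4.96 and -4.07), Wisp2 (-2.79, -4.73 and -3.47), Syt17 (-3.06, -3.29 and -3.45) and 9930013L23Rik (-2.81, -3.65 and -2.79) were the others, with a row named by the number 41156 in place of a symbol (-3.51, -4.58 and -4.07), whose gene is not named here. Epas1, which codes for the HIF-2α subunit that VHL marks for degradation, was named after its values were seen. It stood at 8.39, 10.3, 8.67 and 9.96 units with Dox and 66.9, 57.9, 56.7 and 53.9 without in MYC-2983 cells, where Vhl is intact. In VM-3055 cells it stood at 11.1, 19.6, 12.7 and 14.9 against 79.4, 70.2, 82.2 and 88.9, and in VIM-3039 cells at 13.9, 14.6, 9.84 and 21.0045 against 90.2, 86.96, 70.4 and 77.98. The arms did not overlap, and the changes of -2.53, -2.41 and -2.42 gave an adjusted p of 0.879 in the F test between lines.

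Whether the size of a common change was the same in each line was tested with the limma F test. A difference with an adjusted p under 0.05 and a largest gap between lines of more than 1 was found for 58 of the 300 higher and 245 of the 1104 lower genes, against 11.8% of all tested genes. By the F test alone, without the size of the gap, it was 236 and 706, against 66.8% of all tested genes. The median of the largest gap between lines was 0.62 for the higher and 0.64 for the lower genes.

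Renal epithelial markers were present in all lines, with a summed level over 12 markers of 13394 to 14971 units with Dox and 20666 to 21753 without in MYC-2983, 7856 to 8147 and 16708 to 17488 in VM-3055 and 8655 to 8865 and 15679 to 16952 in VIM-3039 cells. Cdh16 (Ksp-cadherin), whose promoter drives the transgenes, held 8373 to 9660.0 units with Dox and 12381 to 13110.4 without in MYC-2983, 3464 to 3512 and 8914 to 9229.8 in VM-3055 and 3685 to 3702 and 7099 to 7668 in VIM-3039 cells (changes -0.52, -1.37 and -0.99). Pax8 was lower in each line (-0.56, -0.96 and -0.45), and Cdh1 was higher (0.25, 0.39 and 1.01). Of 11 markers tested 1 was common and lower and 0 common and higher (median -0.73), against 8.25% and 2.24% of all tested genes. The common one was the keratin Krt8 (-1.01, -3.68 and -2.15), whose call was lost after either rescaling. Lhx1 moved in opposite directions (-1.30, 1.001 and -0.25). It held 50.9 to 71.2 units with and 136 to 174 without Dox in MYC-2983, and 24.4 to 40 and 12.3 to 19.4 in VM-3055 cells. Cldn7 was at most 2.77 units in either Vhl-deleted line and was not tested, and the 6 endothelial markers summed to at most 15.2 units in any library.

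The common genes were then read in tissue libraries that did not enter the rule, 9 tumour libraries of 8 mice (MYC, VM and VIM, kept on Dox) against normal kidney of 5 vehicle-treated wild-type mice, to see how genes that follow Dox in culture stood in tumours of the same models. By the titles, 3 of the tumour libraries came from 2 mice whose numbers are those of the MYC-2983 and VM-3055 lines, and the kidneys were 2 titled B6 and 3 titled KT. Over 16358 genes tested, 18.8% were higher and 21.5% lower in tumours (limma, adjusted p under 0.05 and a difference of more than 1, with the libraries of 1 mouse averaged). Of the 298 common higher genes tested there, 198 were higher in tumours (66.4%) and 30 lower (10.1%), with a median difference of 1.71. Of the 1087 common lower genes, 405 were lower (37.3%) and 186 higher (17.1%), with a median of -0.54. The median over all genes was 0.01. Over the 6 other tumour mice alone, 191 common higher genes were higher and 360 common lower genes lower. Against the B6 kidneys alone these counts were 181 and 266, the latter 24.6% where 16.5% of all genes were lower, and against the KT kidneys alone 193 and 366, choices made after seeing the data. Tumours and kidney differ in the cell types they hold, and the part of that in these differences was not tested.

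**Figure D4:**
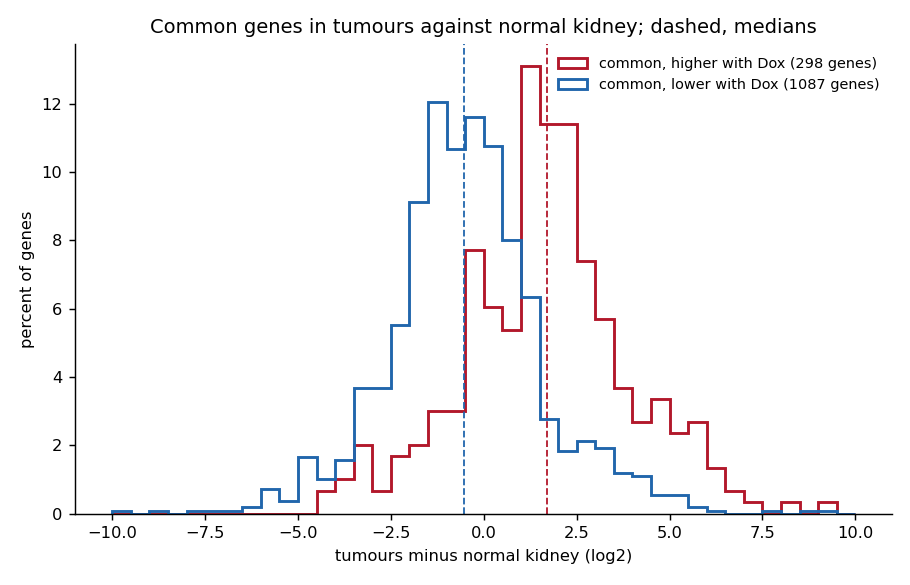
Difference between tumours (8 mice) and normal kidney (5 mice), in log2, for the 298 genes common and higher with Dox (red) and the 1087 common and lower (blue), as percent of genes in bins of 0.5. The medians (dashed) were 1.71 and -0.54, and both distributions reached across 0.

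Of 38 genes picked by the naming rules or for their role that were common and higher with Dox, 34 were higher in tumours and 0 lower. Of 51 common and lower, 15 were lower (29.4%, against 21.5% of all genes) and 10 higher (19.6%), the latter near the 18.8% of all genes. Srm was at 1357 to 3184 units in MYC, 4056 to 4453 in VM and 3025 to 6363 in VIM tumours, against 320.1 to 388 in normal kidney, a difference of 3.21 ± 0.17 (SE, adjusted p 1.71e-08, limma). Lingo3 differed by 8.43 ± 0.35 (adjusted p 3.41e-09), with at most 1.73 units in normal kidney and at least 286 in the tumours. Fzd9 (6.22 ± 0.37), Ccne1 (5.89 ± 0.36) and Aurkb (6.02 ± 0.35) were also higher, whereas Slc6a15 (0.39 ± 0.21), Hspd1 (0.40 ± 0.18), Tomm5 (0.96 ± 0.27) and Shmt1 (0.99 ± 0.22) missed a limit. On the lower side, Col4a4 fell from 3780.3 to 4885 units in normal kidney to 52.3 to 273 in MYC, 8.25 to 304 in VM and 12.8 to 197 in VIM tumours (-6.32 ± 0.76, adjusted p 1.11e-05). Col4a3 (-6.53 ± 0.73), Epas1 (-3.57 ± 0.49), Tcn2 (-4.61 ± 0.31) and Mycn (-3.25 ± 0.37) were lower too. Ankrd1 (4.36 ± 0.61), Itgb3 (2.79 ± 0.33), Ltbp2 (4.38 ± 0.44) and Postn (4.61 ± 0.89) were higher in tumours although lower with Dox in culture, as was the Myc row (2.65 ± 0.29). Neither Fn1 (1.23 ± 0.55, adjusted p 0.0709) nor Gbp2 (-0.28 ± 0.48, adjusted p 0.643) passed. By list, 35 of 36 genes of ribosome biogenesis and 23 of 23 of mitosis were higher in tumours, 12 of 25 interferon genes were lower and 2 higher, and of 40 matrix genes 14 were higher and 6 lower. These counts stand beside 18.8% higher and 21.5% lower over all genes.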

How the data were processed

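RNA of 24 cell-line libraries (poly(A)-selected, stranded kit, paired-end reads) and of 14 tissue libraries was analysed from 1 deposited table. The authors aligned reads to mm9 with MapSplice, processed alignments with Picard 1.64 and SAMtools (per the labels' processing notes), estimated reads per gene with RSEM and set the upper quartile of every library to 1000. The deposited values are this scaled signal, with no raw counts, and whether counting used strand is not given in the sources used here. Depth, recovered from the steps of the values, was 12400000 to 36600000 estimated reads per cell-line library. The table had 21705 rows, of which 2 that share a symbol were left out, and 21 tested rows were named by a number. Genes above 0 in at least 4 of 8 libraries of each line were tested with limma 3.58.1 (R 4.3.3; trended empirical Bayes) on log2(signal + 1), so changes of low genes are understated, with line as a block and as separate contrasts, and p-values were adjusted by Benjamini-Hochberg over all 13378 genes.

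The members and gene lists were chosen with earlier results of these data known. Genes were named as the 3 engineered genes, the 10 largest common rises and falls by the smallest change of the 3 lines (mean of at least 50 units, arms not overlapping), and up to 4 common members and those of opposite direction per list. A further 59 were chosen by role or after their values were seen, as were the 8 genes plotted by library. Alternatives were pseudocounts of 0.1 and 10, 2 other filters, TMM and quantile rescaling, a replicate block, a fit per line, voom on recovered reads and each library left out. The procedure was tested on simulated data. A few genes are not reported here. Tumour libraries of 1 mouse were averaged. Promoter windows came from the mm9 genome with GENCODE vM1 and matched 96.2% of tested genes; a RefSeq promoter table that matched too few genes was dropped after its shares had been seen.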

Additional observations from a re-analysis of the deposited data

Results flagged for a closer look

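Of 128 named genes, 33 had a Dox change that differed between the 3 lines (limma F test, adjusted p under 0.05, and a largest gap between lines above 1; 111 by the p alone), given here as the largest gap between lines on the log2 scale. Among common higher genes the gaps were Cecr2 (1.11), Dkc1 (1.25), Gls2 (2.21), Lingo3 (1.41), Pcsk4 (1.13), Slc6a15 (1.99), Srm (1.15) and Sssca1 (1.44), the one of Sssca1 resting on libraries listed at 0. Among common lower genes they were 41156 (1.06), Acta2 (1.28), Col4a3 (1.68), Col4a4 (2.6), Gbp2 (1.49), Ifit1 (1.53), Irf7 (1.5), Isg15 (1.41), Krt8 (2.67), Ltbp2 (1.09), Mycn (2.13), Ppbp (1.92), Tap2 (1.65), Tcn2 (1.75) and Wisp2 (1.94). Lama3 (3.76), Tap1 (3.53) and Lhx1 (2.3) passed in opposite directions in a pair of lines, at the levels given above for Lama3 and Lhx1. Tap1 stood at no more than 19.7 units without Dox in VM-3055 cells. The others, not common, were Cdkn1a (1.35), Fbln1 (1.01), Itgb4 (2.15), Odc1 (1.25), Rrm2 (1.18), Shmt2 (1.01) and Tert (1.61). Col4a4 and Col4a3 fell more in VM-3055 and VIM-3039 cells, which lack Vhl, than in MYC-2983 cells, while Gls2 and Slc6a15 rose most in MYC-2983 cells, and with 1 line of each genotype line and genotype cannot be told apart.

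In 39 of 768 groups of 4 libraries, 1 library stood apart from the rest, by a gap that took up the share of the group's range given in brackets. Chance alone gives about 1 such group in 20. In MYC-2983 cells with Dox, replicate 3 stood high for Mxi1 (0.847) and low for Tomm5 (0.842). In MYC-2983 cells without Dox, replicate 1 stood high for Ankrd1 (0.959), replicate 2 stood high for Hspe1 (0.891) and low for Shmt2 (0.893), replicate 3 stood low for Cecr2 (0.933) and replicate 4 stood high for Acta2 (0.942) and Itgb4 (0.964). In VM-3055 cells with Dox, replicate 1 stood high for Col4a6 (1), Dhodh (0.968), Gart (0.892), Mxd1 (0.839), Pfas (0.883), Shmt2 (0.971) and Tfeb (0.866) and low for Itgb1 (0.911), replicate 3 stood high for Hexa (1) and low for Pcsk4 (0.953) and replicate 4 stood high for Max (0.894) and low for Tgfb3 (0.836). In VM-3055 cells without Dox, replicate 2 stood high for Ctgf (0.9), Isg15 (0.837), Itgb6 (0.86), Loxl2 (0.852) and Rrm2 (0.868) and low for Cdkn1a (0.867) and Srf (0.904) and replicate 4 stood high for Cdh16 (0.84), Lingo3 (0.836) and Tap1 (0.887). In VIM-3039 cells with Dox, replicate 1 stood high for Myc (0.839) and low for Hk2 (0.849), replicate 2 stood low for Tcn2 (0.831) and replicate 4 stood low for Sssca1 (0.932). In VIM-3039 cells without Dox, replicate 2 stood high for Ppat (0.879) and low for Col4a4 (0.944), replicate 3 stood low for Itgb3 (0.83) and replicate 4 stood high for 9930013L23Rik (0.882) and low for Itga2 (0.882). VM-3055 Dox replicate 1 accounted for 8 of these groups and VM-3055 no Dox replicate 2 for 7. Without the former 299 genes were common and higher and 1103 common and lower, and without the latter 303 and 1080. The value of 1 for Col4a6 and Hexa comes from a single library above 0.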

How the results depend on the processing

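A pseudocount of 10 gave 708 common lower genes, 1345 lower genes in the block fit and 1014 genes that differed between lines. Quantile normalization gave 518 common higher and 651 common lower genes, and 1111 and 1246 in the block fit. Without the size requirement 3044 genes were common and higher and 4478 common and lower. Leaving out 1 library at a time gave 289 to 303 common higher, 1078 to 1111 common lower, 664 to 707 and 1962 to 2052 in the block fit, 1496 to 1581 differing between lines, and, for tumours, 191 to 198 common higher genes that were higher and 366 to 425 common lower genes that were lower. Against the B6 kidneys alone, 266 common lower genes were lower in tumours. The other counts over all genes stayed within 1.5 times of those reported under each alternative tried, the tumours of mice not numbered as a line and the KT kidneys alone included. Gins1, Acta2, Ltbp2, Ifit1 and Irf7 lost the common call with a pseudocount of 10, Krt8 and Hexa with that and either rescaling, Ctsd with either rescaling, and Irf7, Itgb1, Fn1 and Col4a1 with quantile normalization; Hexa also lost it with a pseudocount of 0.1. Shmt2 and Hspe1 became common after TMM rescaling, Hspe1 and Ltbp4 after quantile normalization, under which Lhx1 changed sign (0.30). The cause was not tested. With 1 library left out, Gins1 lost the call without MYC-2983 Dox replicate 1 (smallest change of the 3 lines 0.999) or MYC-2983 no Dox replicate 2 (0.961), Pfas without MYC-2983 no Dox replicate 2 (0.997), Krt8 without MYC-2983 Dox replicate 4 or no Dox replicate 1 (-0.997 and -0.996 in MYC-2983) and Irf7 without VM-3055 Dox replicate 3 (-0.83 in VM-3055). Sssca1 was tested in only 12 of these 24 fits and Hexa and Ifit1 in 20, and each kept the call there. In the remaining fits these genes fell under the filter on libraries above 0. The replicate numbers of VM-3055 and VIM-3039 did not pair the libraries (mean correlation of deviations -0.0218 and 0.000204 over 4 pairs each), and the fit with the replicate block gave 301 common higher and 1105 common lower genes, with 690 and 2022 in the block fit of lines; MYC-2983 libraries share no such number. A voom fit on reads recovered from the steps of the values, of which 94.1% to 95.9% came out whole within 0.02 reads, gave 303 and 1164 common genes. Near the level of 3 reads, at 1.16 to 3.34 units, changes of single genes are not measured well, and that level covers counting error only.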

Other observations

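Several gene families outside the lists were read after their values had been seen, and members of a family can share reads. Of 15 measured genes of the protocadherin beta cluster, which code for adhesion proteins in tandem, 14 were common and lower with Dox (12 after TMM rescaling, 8 after quantile normalization), with a median change of -1.94 against -0.18 over all tested genes. Of 8 interferon-inducible GTPases 7 were common and lower (median -2.53), 7 under both rescalings. Annexins (4 of 10, median -1.16) and the calcium-binding S100 proteins (4 of 8, median -1.28, 2 after quantile normalization) were lower in part, with 0 higher. Claudins, the strand proteins of tight junctions, moved both ways, with Cldn9 higher (1.04, 1.47 and 1.16) and Cldn1, Cldn2 and Cldn4 lower among 12 measured. ADAMTS proteases did so too, with Adamts8 higher (1.61, 3.15 and 1.08) and 6 of 14 lower (4 after quantile normalization). Among 6 enzymes of DNA methylation and its removal, the methyltransferase Dnmt3b (2.71, 1.91 and 1.87) and the dioxygenase Tet1 (3.34, 3.27 and 2.73) were common and higher, under both rescalings as well.

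Other families gave few common genes. Of 17 aminoacyl-tRNA synthetases 0 were common, with 10 higher and 3 lower in each line by the adjusted p alone (limma). Of 23 amino acid transporters 2 were common and higher and 1 lower (3 and 0 after quantile normalization), and their median of -0.04 became 0.08 after TMM rescaling and 0.20 after quantile normalization. Of 15 ephrins and their receptors 2 were common and lower (1 after quantile normalization), and of 9 Frizzled receptors 1 was common and higher and 2 lower (0 lower after quantile normalization). Over all tested genes 2.24% were common and higher and 8.25% common and lower.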
